A study of Mus musculus with 3 samples.

Results

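Exonic circRNAs that carried an identifier from an earlier circRNA database were examined in mouse plasma exosomes. They were chosen as the circRNAs that the deposited table types as exonic and whose source names a database. This gave 322 of the 563 circRNAs in the table (57.2%), which is 69.8% of its 461 exonic circRNAs, and they came from 274 host genes. They are called known exonic circRNAs in the following. The 139 exonic circRNAs without an identifier were used for comparison.

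A circRNA is a closed RNA circle that forms when the end of an exon is joined back to the start of the same exon or of an exon further upstream, which is known as back-splicing. Exonic circles are made of whole exons, they have no free ends and are therefore resistant to exonucleases, and they are found in blood cells and in vesicles released from cells. Circles often begin at the second exon of their host, and long introns with inverted repeats on both sides are known to favour back-splicing. A read that crosses the back-splice junction is counted for the circle and not for the linear mRNA of the same host.

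All mice were wild-type C57BL/6, and the study used males. The model + EA mice received a high-fat diet and streptozotocin (STZ), which is toxic to islet β cells, and were then given electroacupuncture (EA) at the acupoints Zusanli and Pishu. The model mice received the same diet and STZ without EA, and the normal mice were kept on basic forage. Chemical injury of this kind models diabetes without a gene defect. Exosomal RNA was depleted of rRNA, and 1 library was sequenced per group, which are C1 (titled model + EA), B1 (titled model) and A1 (titled normal). Pooling of plasma from several animals before library preparation is neither stated nor denied in the sources used here.

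The sources disagree on which library belongs to which group. The sample titles give C1 as model + EA, B1 as model and A1 as normal. The sheets of the study's supplementary lists assign B1 to model + EA, A1 to model and C1 to normal. Groups were taken from the titles, every value is given by its library code, and no difference between libraries can be read as an effect of the model or of EA until this is settled. With 1 library per group there is also no spread between animals, so p-values were not calculated. The intervals given with shares and ratios are exact 95% limits for counting error only, and reads copied by PCR are not independent molecules. Since whole plasma exosomes were sequenced, fewer vesicles that carry a circle and less of that circle per vesicle cannot be told apart.

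The libraries differed in how their reads were spread. Junction reads over all circRNAs totalled 2913 in C1, 4372 in B1 and 4125 in A1, and these reads fell on 320 circRNAs in C1, 140 in B1 and 157 in A1. C1 thus had the fewest reads and the most circRNAs. Where a circRNA had 0 reads, up to 3 reads remained possible, which is 0.103% of the reads of C1, 0.0686% of those of B1 and 0.0727% of those of A1. Host genes that mark erythroid cells gave 15, 50 and 17 reads over all circRNAs in C1, B1 and A1. These came from 6 of the 12 symbols looked for, including the globin genes Hba-a1, Hbb-bs and Hbb-bt. Epb41 was looked for under that symbol only. Circles without an identifier that carry its older symbol Epb4.1 are not in these counts, which are therefore too low. The part of erythroid hosts in the results was not tested. Among the known exonic circRNAs, 2 had such a host, Dmtn with 8 reads in C1 and Hemgn with 11 reads in A1, and both were at 0 in the remaining libraries. None of the marker genes looked for of platelets, B cells, T cells, myeloid cells, hepatocytes or islets, and none of the exosome proteins Cd9, Cd63 and Tsg101, was a host.

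The junction is what identifies a circle, so the 15 bases on each side of it were taken from the GENCODE M21 transcripts (GRCm38, the same assembly as mm10). In the sequences, lower case is the end of the last exon and capitals are the start of the first exon, read 5′ to 3′ on the strand of the host. Such a 30-base string could be built for 320 of the 322 known exonic circRNAs. All 320 strings were distinct, and 0 of them occurred in any of the 141767 annotated linear transcripts. The following 7 circles were found in all 3 libraries and consist of coding sequence alone. The other 2 circles found in all libraries hold 5′ UTR and are not printed.
Rps6kb1, exons 2 to 4, chr11:86532772-86535460, minus strand: aaggtgcttaaaaagGGTCAGTTAAATGAA
Strn3, exons 2 to 7, chr12:51647994-51661713, minus strand: atggtacagaatgggGCACGGATTGCATTT
Med12l, exons 2 to 4, chr3:59031546-59042413, plus strand: ccgatcccaatttggGATGAACTTACAGCT
Med13l, exon 2, chr5:118593333-118593570, plus strand: atcatgaactgcaggGCTGAACTCACAGGA
Rnf169, exons 2 to 4, chr7:99935162-99955540, minus strand: agcgttcctggcaggAGTTTATATTCAGAA
Nfix, exon 2, chr8:84771784-84772315, minus strand: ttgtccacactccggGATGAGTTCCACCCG
Adam10, exons 2 to 4, chr9:70703287-70722771, plus strand: atgaagatgatattaGTCAGTATGGAAATC

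The following 5 circles of coding sequence alone were each among the 5 with the most reads in a library. Ezh2 exons 2 to 3, which led C1, holds 5′ UTR and is not printed.
Ube2k, exons 2 to 6, chr5:65565989-65594548, plus strand: atgggttttgataggACGAGCAAAAATCAA
Nmt1, exons 3 to 5, chr11:103046379-103055289, plus strand: agagtttctcttgtgATGACCTCTTTGCCA
Slc16a10, exons 2 to 3, chr10:40076564-40080807, minus strand: ccttacgttcacttgCGTGGGTGGGCTCGC
Tlk1, exons 2 to 3, chr2:70770004-70786995, minus strand: gacaaagaatcagagGTGCAATGGATGAGC
Rad52, exons 10 to 11, chr6:119920110-119921028, plus strand: ttctaggtagcagagCAGTACTTCCAGCCC

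The identifiers came from 2 sources. circBase, a public collection of circRNAs, gave 113 of the 322 (35.1%), and the set named youxintian_mouse28026 gave 209 (64.9%). All 113 circBase names had the same mmu_circ_ form. The names of the other source contain genome coordinates, and for all 209 the distance between the coordinates in the name equalled the distance between the ends given in the table. Identifiers were not restricted to exonic circles, since 343 circRNAs of the table had one, of which 17 were typed as sense overlapping and 4 as intronic. The known exonic circRNAs were spread over the genome, with the most on chromosome 2 (36), chromosome 5 (28), chromosome 9 (24), chromosome 4 (23) and chromosome 11 (20), 5 on chromosome X and 0 on the mitochondrial genome.

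The predicted length of the circle had a median of 395 nt, with quartiles of 283.25 and 599 nt. For the exonic circRNAs without an identifier the median was 362 nt, and over all 563 circRNAs it was 435 nt. The shortest circle was 147 nt and came from Agap1, a GTPase-activating protein for Arf. It was followed by circles of Pabpn1, a nuclear poly(A)-binding protein, at 152 nt and Brca2, which acts in homologous recombination, at 153 nt. Agap1 had 17 reads in A1 and 0 in the others, while Pabpn1 had 8 and Brca2 had 6 reads in C1 and 0 in the others. The longest circles were those of Mbd5, a methyl-CpG-binding domain protein, at 2506 nt, Zfp532, a zinc finger protein, at 2351 nt and Odf2, a centriole appendage protein, at 1942 nt. In all, 24 of the 322 circles were longer than 1000 nt.

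The genomic span from the first to the last base of the circle was much longer than the circle itself, because it includes introns. Its median was 5463 nt (quartiles 1922.5 and 13674.25) for the known exonic circRNAs, 4792 nt for the exonic circRNAs without an identifier and 4968 nt over all circRNAs. Exons made up a median of 7.64% of the span of the known exonic circRNAs. Among the shortest spans were those of the single-exon circles of Pabpn1 (152 nt) and Med13 (169 nt), a Mediator subunit. The longest were those of the nuclear receptor coactivator Ncoa2 (64719 nt), the formin Diap3 (58052 nt) and the exoribonuclease Eri3 (50615 nt). A span over 10000 nt was found in 109 of 322 known exonic circRNAs (33.9%) and in 26.6% of the exonic circRNAs without an identifier.

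Both ends of 320 of the 322 circles lay on exon edges of 1 annotated transcript of the host. The other two were a circle of Rbm4 and 1 of the 3 circles of Eri3. For all 320 the predicted length equalled the summed length of the exons between the ends, which is that of a fully spliced circle. Where several transcripts had both ends, equal length was among the rules for choosing 1, so this match was partly favoured. Most circles were small. A single exon was circularised in 27 (8.44%), 103 had 2 exons and 81 had 3, and 57.5% had 2 or 3 exons, beside 57.6% of the exonic circRNAs without an identifier. At the other end, 4 circles held 10 or more exons. These were Strn3 exons 2 to 16 and Odf2 exons 3 to 17, with 15 exons each, and Hnrnpm exons 3 to 12 and Map4k3 exons 4 to 13, with 10 each.

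Circles began at the second exon of their host far more often than at any other. Of the 320 circles, 125 (39.1%) began at exon 2, and 42 consisted of exons 2 and 3 only. This was not particular to circles in a database, since 36.7% of the exonic circRNAs without an identifier began at exon 2. Only 1 circle began at exon 1 (Mtmr3, a phosphoinositide phosphatase), and 0 ended at the last exon, which are the exons that lack a splice acceptor and a splice donor. circBase circles began at exon 2 in 64 cases (57.1%) and circles of the other source in 61 (29.3%). Exon numbers are those of the 1 annotated transcript used for each circle, and they can differ between transcripts of a host. In Med12l an intron of 24445 nt lies before exon 2 in the transcript used here. For a Med12l circle without an identifier it lies before exon 3.

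**Figure D1:**
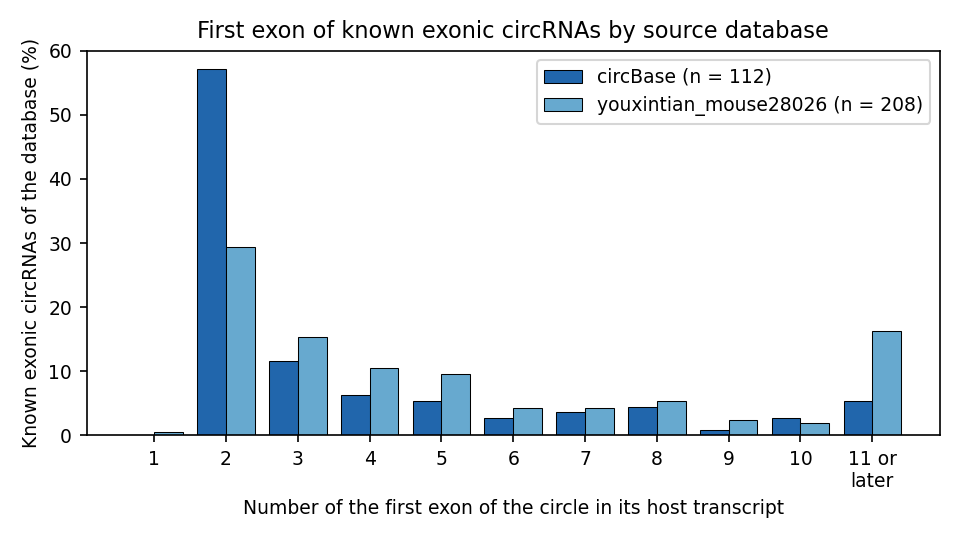
Share of the known exonic circRNAs (percent, vertical axis) by the number of the first exon of the circle in its host transcript (horizontal axis), for circBase (dark bars, 112 circles) and youxintian_mouse28026 (light bars, 208 circles). Exon 2 is the tallest bar for both sources, at 57.1% for circBase and 29.3% for the other.

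The exons used were mainly coding. Of the 320 circles, 246 (76.9%) held coding sequence alone and 67 (20.9%) held the start of the coding sequence with part of the 5′ UTR. Beside these, 3 circles held coding sequence with 3′ UTR, 3 came from noncoding transcripts, and 1 held 5′ UTR alone. The last of these was the circle of exons 2 and 3 of Nrip1, a corepressor of nuclear receptors. The length was a multiple of 3 in 83 of the 246 coding circles (33.7%), and in 27.3% of the coding circles without an identifier. The last 2 bases of the circle were AG in 53.1% of the known exonic circRNAs, and the last base was G in 78.1%. The corresponding values for the circles without an identifier were 51.1% and 75.5%. Median GC content was 45.7% in the known circles and 45.3% in those without an identifier, and 155 of the known circles lay on the plus strand and 167 on the minus strand.

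The introns on both sides of the circles were long. The intron before the circle had a median length of 10475 nt in the known exonic circRNAs and 5874 nt in those without an identifier, and the intron after it 8585.5 nt and 2840 nt. All 4798 introns of the 277 host transcripts of the known exonic circRNAs had a median of 2094 nt. Host transcripts of the circles without an identifier were not measured in this way. The intron before a circle was over 10000 nt in 52.0% of the known exonic circRNAs and in 36.0% of the others. Circles of circBase had medians of 17642.5 nt before and 12267.5 nt after, and those of youxintian_mouse28026 had 8529 nt and 6682 nt. The first intron of a gene is often its longest, and exon-2 circles had 21917 nt before the circle. The known circles that began elsewhere still had medians of 5975 nt before and 6246 nt after. Single cases ranged widely: the intron before the circle was 149005 nt in Agap1 and 81 nt in Pabpn1.

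**Figure D2:**
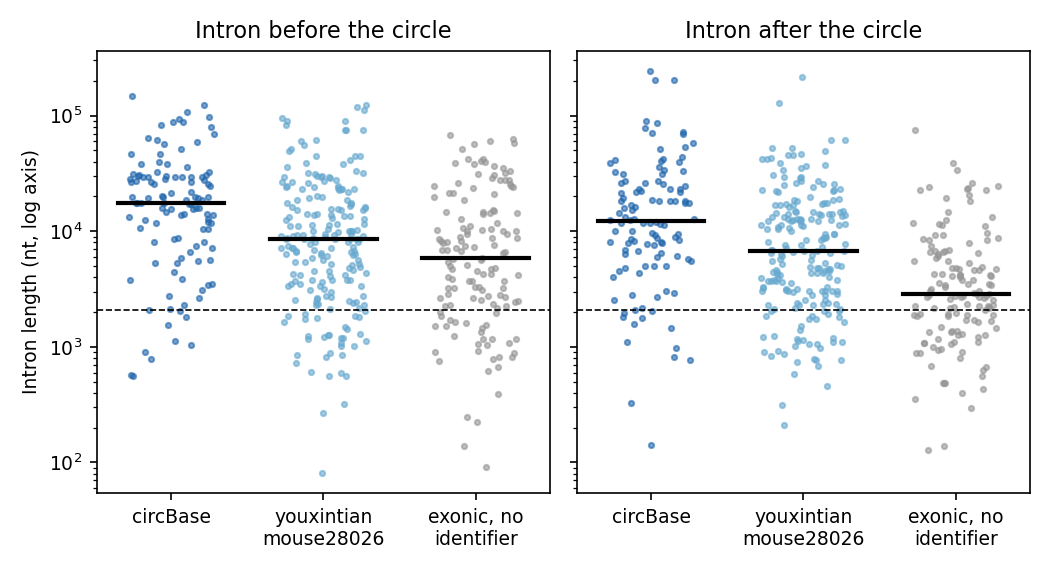
Length of the intron before (left) and after (right) each exonic circle, in nt on a log axis, for known circles of circBase and of youxintian_mouse28026 and for circles without an identifier. Each point is 1 circle, and bars are medians (17642.5, 8529 and 5874 nt before the circle and 12267.5, 6682 and 2840 nt after it). The dashed line is the median of all introns of the host transcripts of the known circles only (2094 nt).

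Of the 322 known exonic circRNAs, 182 were found in C1 (56.5%), 81 in B1 (25.2%) and 100 in A1 (31.1%), where found means at least 1 read. They were 56.9% of all circRNAs found in C1, 57.9% in B1 and 63.7% in A1. Their reads numbered 1715 in C1, which is 58.9% of the library (interval 57.1 to 60.7). They numbered 2693 in B1, 61.6% of that library (60.1 to 63.0), and 2883 in A1, 69.9% (68.5 to 71.3). The interval of A1 lay above those of C1 and B1, so the share in A1 was higher than counting error alone covers, while the spread between animals is unknown. circBase circles found numbered 62, 33 and 38 in C1, B1 and A1, and those of the other source 120, 48 and 62.

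The number of reads per circle set C1 apart. The median was 8 reads in C1 (quartiles 4 and 12), 34 in B1 (22 and 41) and 28 in A1 (16 and 37). The highest count was 56 in C1, 92 in B1 and 131 in A1. Circles with 3 reads or fewer numbered 35 in C1, 1 in B1 and 3 in A1, and circles with 20 reads or more numbered 13 (7.14%), 65 (80.2%) and 68 (68.0%). When found was set to mean at least 10 reads, the share found was 20.8% in C1, 22.7% in B1 and 27.3% in A1, so the larger number of circles in C1 consisted of circles with few reads. Circles without an identifier had medians of 7.5, 32 and 22 reads in C1, B1 and A1, so the gap between libraries was not confined to the known ones.

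**Figure D3:**
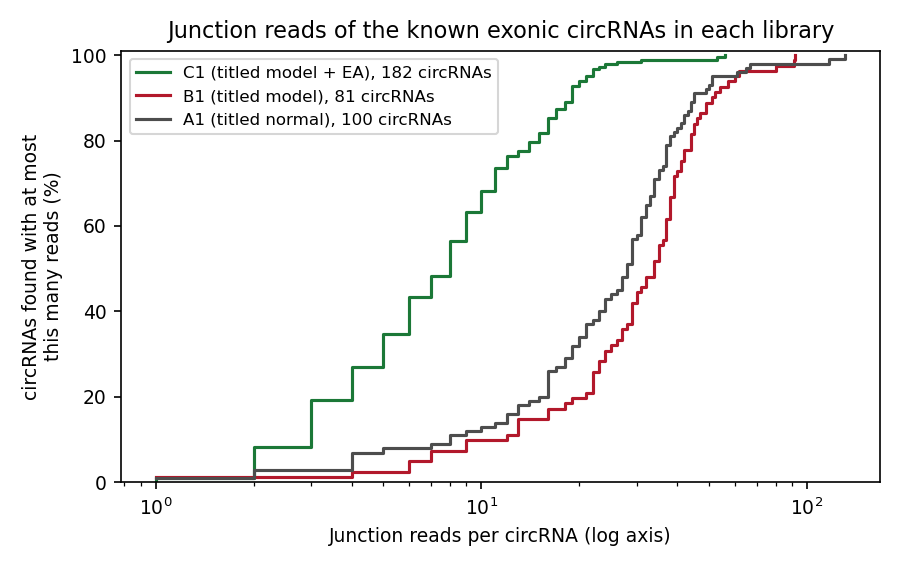
Cumulative share of the known exonic circRNAs found in a library (percent, vertical axis) by junction reads per circRNA (log axis), for C1 (182 circRNAs), B1 (81) and A1 (100). The curve of C1 lies to the left of the others, with a median of 8 reads against 34 in B1 and 28 in A1.

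The libraries differed in their leading circles. In C1 the most reads fell on Ezh2 (56), the methyltransferase of Polycomb complex PRC2, and on the ubiquitin-conjugating enzyme Ube2k (53). They were followed by Mbd2 (31), which binds methylated DNA, the translation initiation factor subunit Eif3a (26) and the endocytosis protein Fcho2 (24). In B1 the leading circles were those of the N-myristoyltransferase Nmt1 (92), Ezh2 (91), the amino acid transporter Slc16a10 (80), the kinetochore protein Zwilch (62) and the Mediator subunit Med13l (60). In A1 they were those of the kinase Tlk1 (131), the recombination protein Rad52 (117), the Mediator subunit Med12l (67), the scaffold protein Erbb2ip (65), which binds ERBB2, and Ikaros, encoded by Ikzf1 (61), a factor of lymphoid development. The top 5 held 11.1% of the reads of known exonic circRNAs in C1, 14.3% in B1 and 15.3% in A1. Ezh2 was the only circle among the top 5 of more than 1 library.

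Sharing between libraries was rare but more frequent among known circles. In total 32 of 322 known exonic circRNAs (9.94%, interval 6.9 to 13.7) occurred in 2 or more libraries, against 2 of 139 exonic circRNAs without an identifier (1.44%, 0.175 to 5.1) and 43 of all 563 (7.64%). These intervals take each circle as independent and hold no error of detection, so they are no test of the difference. The sharing was 12.4% for circBase and 8.61% for youxintian_mouse28026, with overlapping intervals of 6.94 to 19.9 and 5.18 to 13.3. In all 3 libraries were 9 known circles and 0 of the exonic circles without an identifier. C1 and B1 had 14 further circles in common, C1 and A1 had 6, and B1 and A1 had 3. The remaining circles were found in 1 library only, 153 in C1, 55 in B1 and 82 in A1. With C1 left out, 12 of the 169 circles found in B1 or A1 were found in both (7.1%).

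Circles that begin at exon 2 were shared more often. Of the 125 such circles 23 occurred in 2 or more libraries (18.4%, interval 12.0 to 26.3), against 9 of the 195 that begin elsewhere (4.62%, 2.13 to 8.58). All 9 circles found in every library began at exon 2 of the transcript used, and this number depends on that transcript, as for Med12l. Put the other way, exon 2 was the first exon in 71.9% of the shared circles and in 35.4% of those found in 1 library. The same order held within each source. In circBase it was 92.9% of 14 shared circles and 52.0% of 98 others, and in youxintian_mouse28026 55.6% of 18 and 26.8% of 190. Shared circles had longer introns before them, with a median of 23544.5 nt, against 9883 nt for circles found in 1 library. Exon-2 circles as a whole had 21917 nt and those that begin elsewhere 5975 nt, so first exon and intron length were not separated here. The shared circles had somewhat more reads in each library, with medians of 10, 37.5 and 40 in C1, B1 and A1, against 8, 32 and 27 for circles found in that library alone. The part of read number in the sharing was not tested.

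**Figure D4:**
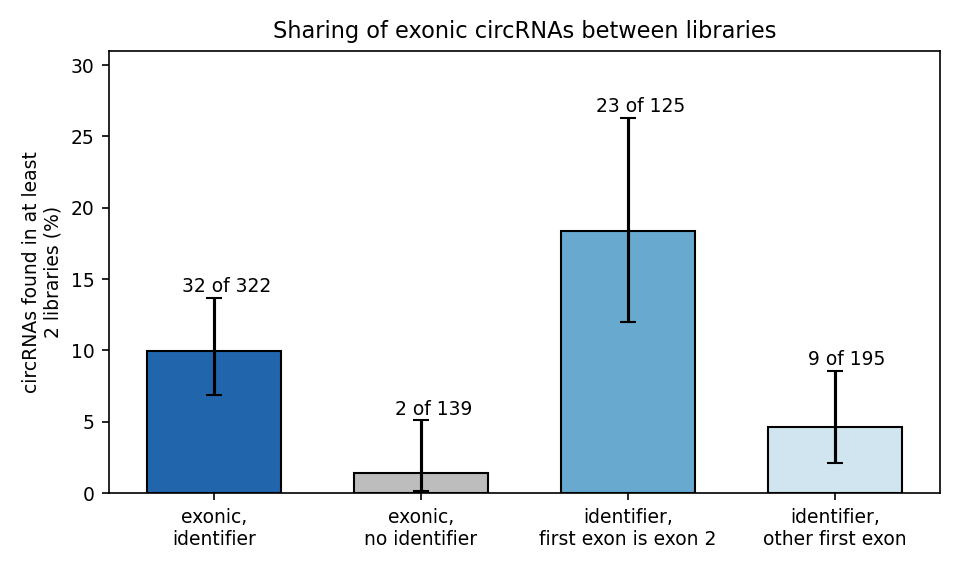
Share of circRNAs found in at least 2 libraries (percent, vertical axis), for exonic circRNAs with an identifier (32 of 322) and without one (2 of 139), and for known circles that begin at exon 2 (23 of 125) and elsewhere (9 of 195). Error bars are exact 95% intervals that take circles as independent, and the bar for exon 2 is the highest at 18.4%.

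The 9 circles found in all libraries came from hosts with varied roles. Adam10, a membrane metalloprotease that sheds surface proteins, had 21 reads in C1, 37 in B1 and 41 in A1. Nfix, a transcription factor of the nuclear factor I family, had 15 in C1, 29 in B1 and 29 in A1. Rnf169, a ubiquitin-binding protein of the DNA damage response, had 17 in C1, 39 in B1 and 51 in A1. In these 3 circles C1 had the lowest unscaled count, but with the TMM factors of edgeR C1 was the highest for Adam10 (38.4 scaled reads in C1, 32.9 in B1 and 30.8 in A1) and Nfix (27.4, 25.8 and 21.8). After scaling by the authors' factors the ratio of B1 to A1 was 0.732 (interval 0.457 to 1.17) for Adam10, 0.811 (0.468 to 1.41) for Nfix and 0.621 (0.398 to 0.96) for Rnf169. Rps6kb1, the S6 kinase downstream of mTOR, had 17 reads in C1, 25 in B1 and 49 in A1, and was highest in A1 under each scaling. Its ratio of B1 to A1 was 0.414 (0.245 to 0.683). With the TMM factors every log2 ratio is higher than with the authors' factors, by 1.09 for C1 to B1, 1.63 for C1 to A1 and 0.54 for B1 to A1, and the ratios for single circles carry this uncertainty.

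Strn3, a regulatory subunit of phosphatase PP2A, had 19 reads in C1, 46 in B1 and 21 in A1 for exons 2 to 7. Med13l, of the Mediator kinase module, had 15 in C1, 60 in B1 and 16 in A1. Both were highest in B1 under each scaling, with a ratio of B1 to A1 of 3.04 (1.73 to 5.66) for Med13l and 1.78 (1.04 to 3.14) for Strn3. Ankib1, a ubiquitin ligase, had 15 in C1, 54 in B1 and 36 in A1. Erbb2ip had 21 reads in C1, 9 in B1 and 65 in A1, and was lowest in B1 and highest in A1 under each scaling. Its ratio of B1 to A1 was 0.112 (0.0492 to 0.227). Med12l, a paralog of the Mediator kinase module subunit MED12, had 1 read in C1, 52 in B1 and 67 in A1, and its ratio of C1 to A1 was 0.0117 (0.000292 to 0.0675) with the authors' factors and 0.0362 (0.000904 to 0.209) with TMM.

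**Figure D5:**
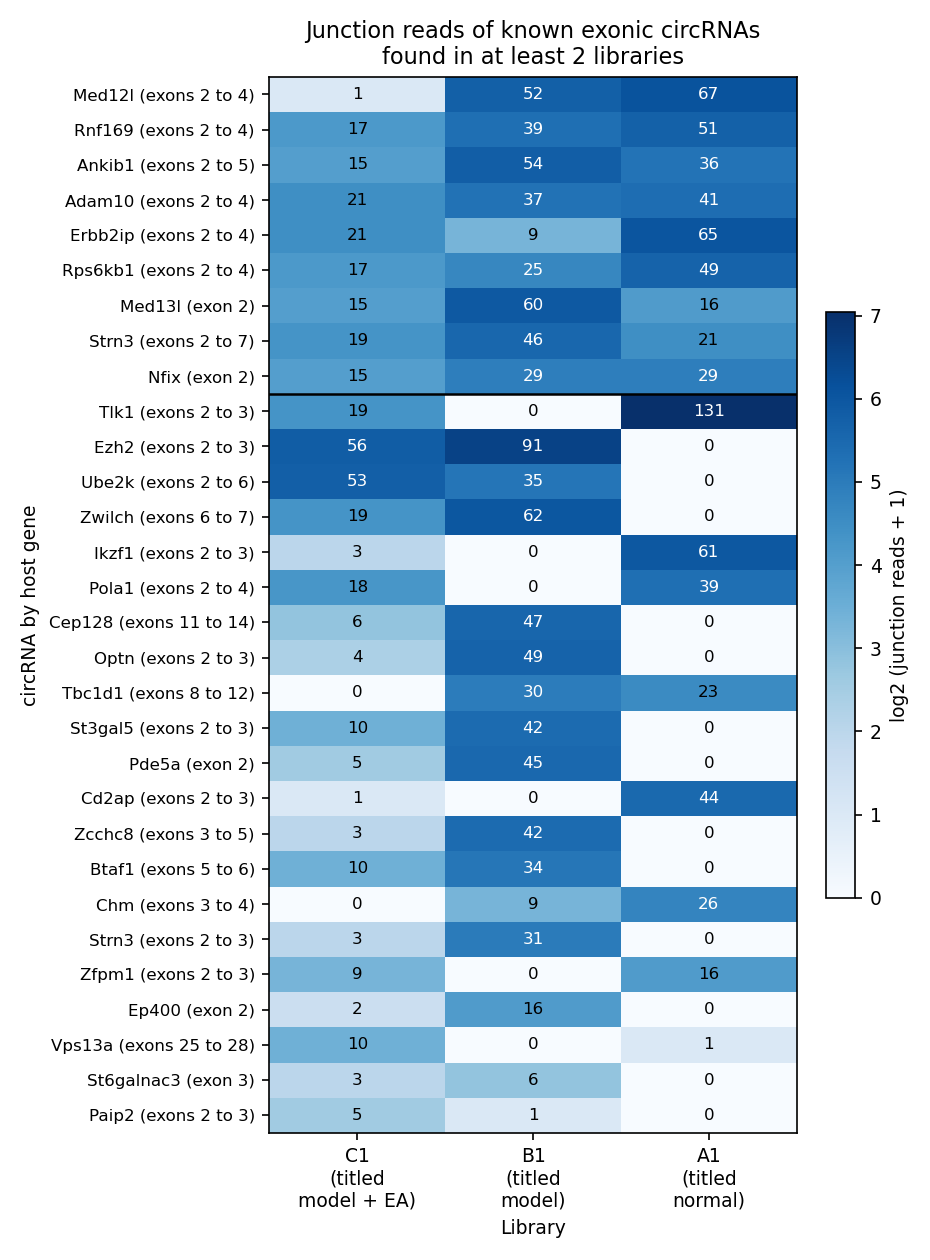
Junction reads (numbers in the cells, colour as log2 of reads plus 1) of 30 of the 32 known exonic circRNAs found in at least 2 libraries (rows, named by host gene and exons) in C1, B1 and A1 (columns). The 9 circles above the black line were found in all libraries, and 13 of those below it have reads in C1 and B1 and 0 in A1.

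Circles found in 2 libraries with 10 reads or more in both came from several processes. Ezh2 exons 2 to 3 had 56 reads in C1, 91 in B1 and 0 in A1. Against the limit of 3 reads in A1 and with the authors' factors this was at least 14.6-fold higher in C1 and at least 24.6-fold higher in B1. With TMM these limits were 45.3-fold and 35.9-fold. Ube2k had 53 in C1, 35 in B1 and 0 in A1, which was at least 13.9-fold higher in C1 and at least 9.47-fold higher in B1 with the authors' factors, and at least 42.9-fold and 13.8-fold with TMM. Zwilch, which acts at kinetochores, had 19 in C1, 62 in B1 and 0 in A1. St3gal5, which makes the ganglioside GM3, had 10, 42 and 0 reads in C1, B1 and A1, and Btaf1, a regulator of TATA-binding protein, had 10, 34 and 0. These 5 circles were all at 0 in A1.

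Other circles with 10 reads or more in 2 libraries were at 0 in C1 or B1. Tlk1 exons 2 to 3 had 19 reads in C1, 0 in B1 and 131 in A1, so it was at least 53.8-fold lower in B1 than in A1 with the authors' factors and at least 36.9-fold lower with TMM. Pola1, the catalytic subunit of DNA polymerase α, had 18 in C1, 0 in B1 and 39 in A1. Tbc1d1, a Rab GTPase-activating protein that acts in insulin-regulated glucose transport, had 0 in C1, 30 in B1 and 23 in A1, with a ratio of B1 to A1 of 1.06 (0.594 to 1.91).

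The libraries were then compared in pairs at the 2-fold threshold of the study's methods, on the deposited normalized values, in which 0.1 reads stand in for a count of 0. The study required the threshold for model + EA against both other groups, while each pair was called separately here. C1 (titled model + EA) against B1 (titled model) gave 161 of 322 known exonic circRNAs higher (50.0%) and 75 lower (23.3%), beside 51.7% higher and 23.1% lower over all 563 circRNAs. C1 (titled model + EA) against A1 (titled normal) gave 168 higher (52.2%) and 97 lower (30.1%), beside 53.6% and 27.0% over all circRNAs. B1 (titled model) against A1 (titled normal) gave 70 higher (21.7%) and 91 lower (28.3%), beside 22.6% and 25.9%. The shares lay near those over all circRNAs in each pair, so no difference from the rest of the table can be read from them.

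Nearly all of these calls were circles with reads in 1 library and 0 in the other. Of the circles higher in C1 than in B1, 159 of 161 had 0 reads in B1, and of those higher in C1 than in A1, 167 of 168 had 0 reads in A1. When the exact interval of the ratio had to lie beyond 2-fold, 54 circles were higher in C1 than in B1 and 63 lower. Over all circRNAs 17.9% were then higher and 20.1% lower. For C1 against A1 there were 38 higher and 84 lower, beside 13.0% and 23.1% over all, and for B1 against A1 63 higher and 80 lower, beside 20.4% and 22.6%. This rule depends on the number of reads, since a circle with 0 reads in B1 needed 10 in C1 to be called, and C1 had a median of 8. It also depends on the scaling. With TMM 105 circles were higher in C1 than in B1 and 51 lower, and 122 were higher in C1 than in A1 and 59 lower. With total junction reads the counts were 89 and 58 against B1, and 92 and 74 against A1. Which direction prevails in C1 can therefore not be given from these calls. For B1 against A1 TMM gave 64 higher and 76 lower.

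Circles with reads in both libraries of a pair allow a ratio. Of the 23 found in C1 and B1, 2 were higher in C1 by 2-fold, 17 lower and 4 within 2-fold, with a median log2 ratio of -1.82. Of the 15 found in C1 and A1, 1 was higher in C1, 12 lower and 2 within, with a median of -1.61. Of the 12 found in B1 and A1, 1 was higher in B1, 3 lower and 8 within, with a median of -0.56. These values depend on the scaling. TMM factors are built to centre circRNAs that a library shares with a reference library, so a median near 0 can follow by construction. With them the medians were -0.73 for C1 against B1, 0.02 for C1 against A1 and -0.01 for B1 against A1. The split was then 3 higher, 8 lower and 12 within for C1 against B1, 3 higher, 4 lower and 8 within for C1 against A1, and 2 higher, 2 lower and 8 within for B1 against A1. A general direction of the shared circles can therefore not be given for C1 against A1.

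The host genes were grouped by function, with lists made with earlier results of these data in view, so their counts are a description only. Calls of 2-fold are given beside the share over all 563 circRNAs. The chromatin list held 32 circles, the largest group, of which 21 were found in C1, 8 in B1 and 7 in A1, and 4 were shared. Between C1 and A1 21 were higher in C1 (65.6%) and 7 lower (21.9%), beside 53.6% and 27.0% over all. Between B1 and A1 8 of the 32 were higher in B1 and 7 lower (21.9%), near the 22.6% and 25.9% over all. Between C1 and B1 53.1% were higher in C1 and 21.9% lower, near the 51.7% and 23.1% over all. Ezh2 exons 2 to 3 and Btaf1 had no reads in A1. The histone methyltransferases Nsd1 (45 reads) and Ehmt1 (33 reads) were found in A1 only. Median reads of the chromatin circles found were 7, 21.5 and 29 in C1, B1 and A1, beside 8, 34 and 28 for all known exonic circRNAs and 7, 33.5 and 25 for all circRNAs.

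The mitosis and centrosome list held 21 circles, 15 found in C1, 5 in B1 and 3 in A1. Against A1, 15 were higher (71.4%) and 3 lower (14.3%) in C1, beside 53.6% and 27.0% over all. In B1 5 were higher (23.8%) and 3 lower (14.3%), beside 22.6% and 25.9%. Between C1 and B1 61.9% were higher in C1 and 23.8% lower, beside 51.7% and 23.1%. The leading circles were those of Zwilch, the centrosomal proteins Cep128 (6, 47 and 0 reads in C1, B1 and A1) and Cntln (51 reads in B1 only), and exons 9 to 10 of Ckap5, a microtubule polymerase (39 reads in B1 only). The replication and repair list held 11 circles, 9 found in C1, 1 in B1 and 4 in A1. In C1 72.7% were higher and 9.09% lower than in B1, beside 51.7% and 23.1% over all. Against A1, 63.6% were higher and 36.4% lower in C1, beside 53.6% and 27.0%. In B1 0% were higher and 27.3% lower than in A1, beside 22.6% and 25.9%. In B1 the single circle was Rnf169. Rad52 had 0 reads in C1, 0 in B1 and 117 in A1, so with the authors' factors it was at least 49.7-fold lower in C1 and at least 48.1-fold lower in B1 than in A1. With TMM these limits were 16.1-fold and 33.0-fold. Rad23b, which acts in nucleotide excision repair, had 44 reads in A1 only. The 7 circles of nuclear transport hosts were found in C1 (6) and B1 (1) and not in A1. Over all 563 circRNAs 320 were found in C1, 140 in B1 and 157 in A1. Between C1 and A1 85.7% of the 7 were higher in C1, beside 53.6% over all, and a list of 7 is too small to read a difference. Against B1, 85.7% were higher in C1 and 14.3% lower, beside 51.7% and 23.1%. In B1 14.3% were higher and 0% lower than in A1, beside 22.6% and 25.9%. The importins Ipo7 (35 reads in B1) and Ipo11 (16 reads in C1) led the list.

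The ubiquitin and SUMO list held 23 circles, 10 found in C1, 7 in B1 and 9 in A1, so its circles were spread over the libraries. Beside Ankib1 and Ube2k, the ligase Ube3a had 44 reads in B1 only and the SUMO ligase Pias1 had 40 in A1 only. Between C1 and B1 8 were higher in C1 (34.8%) and 6 lower (26.1%), beside 51.7% and 23.1% over all. Against A1, 39.1% were higher and 39.1% lower in C1, beside 53.6% and 27.0%. In B1 26.1% were higher and 34.8% lower than in A1, beside 22.6% and 25.9%. The Mediator and coregulator list held 6 circles, 3 found in C1, 4 in B1 and 3 in A1. Between C1 and B1 1 was higher in C1 (16.7%) and 4 lower (66.7%), beside 51.7% and 23.1% over all, with Med12l, Med13l, Med13 (32 reads in B1 only) and Ncoa2 (24 reads in B1 only) as the lower ones. Against A1, 16.7% were higher and 33.3% lower in C1, beside 53.6% and 27.0%. In B1 50.0% were higher and 16.7% lower than in A1, beside 22.6% and 25.9%.

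The transcription factor list held 15 circles, 6 found in C1, 3 in B1 and 10 in A1. Against A1, 3 were higher (20.0%) and 10 lower (66.7%) in C1, beside 53.6% and 27.0% over all. In B1 2 were higher (13.3%) and 9 lower (60.0%), beside 22.6% and 25.9%. Between C1 and B1 33.3% were higher in C1 and 20.0% lower, beside 51.7% and 23.1%. Ikzf1 had 3, 0 and 61 reads in C1, B1 and A1, and the ratio of C1 to A1 was 0.0386 (0.00774 to 0.118) with the authors' factors and 0.119 (0.024 to 0.366) with TMM. Pou2f1, an octamer-binding factor, had 38 reads and Atf6, a sensor of endoplasmic reticulum stress, 34, both in A1 only. Exons 6 to 7 of Sox6, which acts in red cell maturation, had 57 reads in B1 only. The kinase and phosphoinositide list held 26 circles, 14 found in C1, 4 in B1 and 12 in A1. Between C1 and B1 50.0% were higher in C1 and 11.5% lower, beside 51.7% and 23.1% over all. Against A1, 46.2% were higher and 46.2% lower in C1, beside 53.6% and 27.0%. Between B1 and A1 2 were higher in B1 (7.69%) and 11 lower (42.3%), beside 22.6% and 25.9% over all. Among the lower ones were Tlk1 exons 2 to 3, exons 8 to 13 of the phosphoinositide kinase Pip5k1b (37 reads in A1 only) and Hipk2 (35 reads in A1 only). The vesicle traffic list held 19 circles, 13 found in C1, 5 in B1 and 4 in A1. In C1 63.2% were higher and 26.3% lower than in B1, beside 51.7% and 23.1% over all. Against A1, 68.4% were higher and 15.8% lower in C1, beside 53.6% and 27.0%. In B1 21.1% were higher and 21.1% lower than in A1, beside 22.6% and 25.9%. Optn, an autophagy receptor, had 4, 49 and 0 reads in C1, B1 and A1, and exons 2 to 3 of Rabgef1, an exchange factor for Rab5, had 44 in B1 only. The lists were not tested against other genes.

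Some hosts gave several circles. Of the 274 hosts, 239 gave 1 known exonic circRNA, and 35 gave more, with 83 circles together. In 21 of these 35 hosts, circles had a start or an end in common. Further, 23 hosts also gave exonic circles without an identifier. A host was found in at least 2 libraries in 44 cases, and in 13 of them through different circles only.

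Strn3 gave 5 circles, the most of any host, and 4 of them began at exon 2. The junction of exons 2 to 7 is printed above, and those of the other 4 circles follow. The capital part is the same in all circles that begin at exon 2, and the lower-case part tells those apart. Exons 4 to 7 has another capital part and the same lower-case part as exons 2 to 7.
Strn3, exons 2 to 16, chr12:51619814-51661713: ttgacaataaaacggGCACGGATTGCATTT
Strn3, exons 4 to 7, chr12:51647994-51655483: atggtacagaatgggAGGAAACCAAAGATG
Strn3, exons 2 to 4, chr12:51655402-51661713: acagctattaagacaGCACGGATTGCATTT
Strn3, exons 2 to 3, chr12:51661151-51661713: ccacctttgaatcagGCACGGATTGCATTT

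The circle of exons 2 to 7 shares its start with 3 of these and its end with the circle of exons 4 to 7. It was the only Strn3 circle found in all libraries. Exons 2 to 16 had 42 reads and exons 4 to 7 had 23 reads in A1, and both had 0 in C1 and B1. Exons 2 to 4 had 9 reads in C1 only, and exons 2 to 3 had 3 in C1, 31 in B1 and 0 in A1. Strn3 circles with the same start and different ends thus had reads in different libraries. Over all circRNAs 520 of 563 were found in 1 library only, so this is not particular to Strn3.

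Tlk1 gave 4 circles. In A1 all 131 reads fell on exons 2 to 3, and in C1 that circle had 19 reads. Exons 2 to 7 had 9, exons 2 to 4 had 7 and exons 4 to 12 had 3 reads in C1, and all 3 had 0 in B1 and A1. Ezh2 also gave 4. Its exons 2 to 10 had 8 reads, exons 5 to 6 had 5 reads, and a circle whose end lies 27 nt from that of the main one had 6 reads, all in C1 only. Arhgap10, a GTPase-activating protein, gave 4 circles, each found in 1 library. Its exons 14 to 18 and 14 to 16 had 11 reads each in C1 only, and exons 16 to 18 and 8 to 13 had 37 and 33 in A1 only. Ankib1 gave exons 2 to 4 and 2 to 3 with 31 reads each in A1 only, beside the circle found in all libraries. Ep400, a chromatin remodeler, gave exon 2 with 2 reads in C1, 16 in B1 and 0 in A1, exons 8 to 10 with 5 in C1 only and exons 2 to 3 with 20 in A1 only. Senp6, a SUMO protease, gave exons 2 to 6 with 7 and exons 4 to 5 with 4 reads in C1 only and exons 2 to 5 with 28 in B1 only. Eri3 gave exons 4 to 6 with 19 reads in C1 only, exons 3 to 6 with 14 reads in A1 only and the unmatched circle with 2 reads in A1.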

How the data were processed

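Exosomal RNA of mouse plasma was sequenced in 3 libraries, 1 per group. Per the labels the authors trimmed reads with cutadapt 1.9.3 and aligned them with STAR 2.5.1b to mm10; per the study's methods circRNAs were called with DCC and annotated with circBase. The deposited table holds counts of junction reads and log2 normalized values. The deposited log2 values were checked against the counts, and each equals log2 of the count after multiplication by a library factor (C1 1, B1 1.03, A1 1.28), where 0 is replaced by 0.1 reads.

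Exons, UTRs and junction sequences came from GENCODE M21. For 308 of the 322 circRNAs the deposited transcript accession was among the RefSeq accessions of the GENCODE transcript used. Splice-site flanks were not analysed here, and a few circRNAs that the naming rule covers are not reported here. Calls used a ratio of at least 2 or at most 0.5. Intervals were Clopper-Pearson, and those of ratios came from the binomial split of the reads of both libraries. Folds given as at least used 3 reads for a count of 0 and took the other count as exact. Python 3.11.15, pandas 2.3.3, SciPy 1.17.1, R 4.3.3 and edgeR 4.0.16 (TMM factors only) were used.

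Named circRNAs were those in all libraries, those in 2 libraries with 10 reads or more in each, the top 5 of each library, hosts with 3 or more circRNAs, the extremes of length and span, and 2 to 4 of each host list by reads. Names outside this rule (exon extremes, Dmtn, Hemgn, Nrip1, Rbm4 and Mtmr3) were chosen after their values were seen. The members and lists were chosen with earlier results of these data known. Alternatives changed the value for 0, the scaling, the threshold, a minimum of reads, the databases and types included and the groups. Leaving out C1, a minimum of 4 reads, first exons by source and the scaling of interval calls, named ratios and shared circRNAs were added after seeing the data.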

Additional observations from a re-analysis of the deposited data

How the results depend on the processing

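Of 205 alternative values of 38 results, 163 stayed close to the main value, 41 moved and 1 reversed. The share of known exonic circRNAs higher in C1 than in B1 (50.0%) fell to 28.3% with 3 reads in place of 0, 17.1% where the higher library needed 10 reads or more and 16.8% with an exact interval beyond 2-fold; the share higher in C1 than in A1 (52.2%) fell to 25.8%, 17.7% and 11.8%. With the groups of the study's lists, the comparison of model + EA against model had 21.7% higher, that of model + EA against normal 23.3% higher and 50.0% lower, and that of model against normal 52.2% lower. With at least 10 reads required, 5.59% were found in at least 2 libraries, 20.8% were found in C1 with a median of 15 reads, and they held 38.2% of the reads of C1 and 68.5% of those of A1. circBase circles alone held 23.6%, 23.8% and 29.2% of the reads of C1, B1 and A1, those of youxintian_mouse28026 35.3%, 37.8% and 40.7%, and all types with an identifier 61.2%, 69.2% and 72.0%. Calls by the exact interval numbered 54 higher in C1 than in B1, against 89 with total junction reads and 105 with TMM, and 38 higher in C1 than in A1, against 92 and 122. The median log2 ratio of circles found in both libraries was -0.73 for C1 against B1 with TMM. For C1 against A1 it was -1.26 without scaling, -0.76 with total junction reads and 0.02, a reversal, with TMM. TMM is built to centre circRNAs shared with a reference library. TMM shifted all log2 ratios by 1.09 for C1 against B1, 1.63 for C1 against A1 and 0.54 for B1 against A1, relative to the authors' factors, and total reads by 0.64, 0.85 and 0.22. Merging ends within 10 nt merged 0 circRNAs, so these alternatives equal the main values by construction and are among the 163 that stayed close. No paired analysis was possible because each group has 1 library. Depth limits the comparison of C1, where the median count was 8 reads, and a count of 0 cannot be told from up to 3 reads.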
